A study of Danio rerio with 12 samples.

Results

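Of the 12 libraries of a study of zebrafish (Danio rerio) hearts, 6 came from uninjured hearts, and these are described here across all measured genes. They were taken by their titles: 3 libraries from yap +/+ fish (wild type) and 3 from yap -/- fish (mutant), all after sham surgery. In the sham operation the chest was opened under tricaine anaesthesia and the ventricle was exposed without being injured. Whole hearts were collected 7 days later from fish aged 6 to 12 months. Polyadenylated RNA was sequenced, and the values are FPKM, that is, fragment numbers divided by transcript length and by the number of fragments mapped in the library. The other 6 libraries came from cryoinjured hearts and are used to follow named genes and lists and in 1 alternative fit. The comparison asks how yap -/- hearts differ from wild-type hearts in the absence of a lesion. The labels do not give the allele, the sex of the fish or whether hearts were pooled, nor do they say that replicates were separate animals, so p-values measure only the spread between these samples.

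Yap is a transcriptional co-activator that binds TEAD factors on DNA. The kinases of the Hippo pathway phosphorylate it and thereby keep it out of the nucleus. In vertebrate hearts Yap and its paralogue Taz, encoded by wwtr1, are known for roles in cardiomyocyte growth, in the epicardium (the mesothelial sheet that covers the heart) and in cells that deposit matrix. Classical targets of Yap and Taz include genes of the CCN family of matrix proteins and regulators of the actin cytoskeleton.

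Heart muscle markers were abundant in every library: myl7, the light chain of heart muscle myosin, stood between 14277 and 34202 FPKM, and tnnt2a, cardiac troponin T, between 8461 and 11043 FPKM. The fast skeletal myosin gene myhz2 did not exceed 0.05 FPKM. The mutant libraries differed among themselves more than the wild-type libraries did. The median absolute log2 difference between 2 libraries ran from 0.25 to 0.28 within wild type, from 0.37 to 0.67 within mutants and from 0.25 to 0.52 between the groups. Mutant sham 3 was closer to wild-type sham 1, 2 and 3 (0.30, 0.25 and 0.30) than to mutant sham 1 and 2 (0.50 and 0.37). Genes listed at 0 numbered 5138 in mutant sham 1 and 3353 to 4347 in the other 5 libraries. Ribosomal protein genes held 40.6% of summed FPKM in mutant sham 1 and 14.0% to 20.2% in the other 5 libraries. Globin genes, transcribed in red blood cells, held 3.84% in wild-type sham 1 and 30.7% in wild-type sham 3. Mutant sham 2 had the most macrophage RNA, as given with the leukocyte genes. Mutant sham 3 had 2 columns, whose median absolute log2 difference was 0.0167, and they were averaged to 1 sample. The steps between low values gave depths, relative to wild-type sham 1, of 1.06 and 1.03 in wild-type sham 2 and 3, of 1.19 and 0.951 in mutant sham 1 and 2 and of 0.663 and 0.694 in the 2 columns of mutant sham 3. Each had a weaker solution, at 0.53, 0.514, 0.597, 1.90, 1.33 and 1.39 in the same order, so relative depth was not settled. Because mutant sham 1 and mutant sham 2 stand apart, results are also given without them where that matters.

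**Figure D1:**
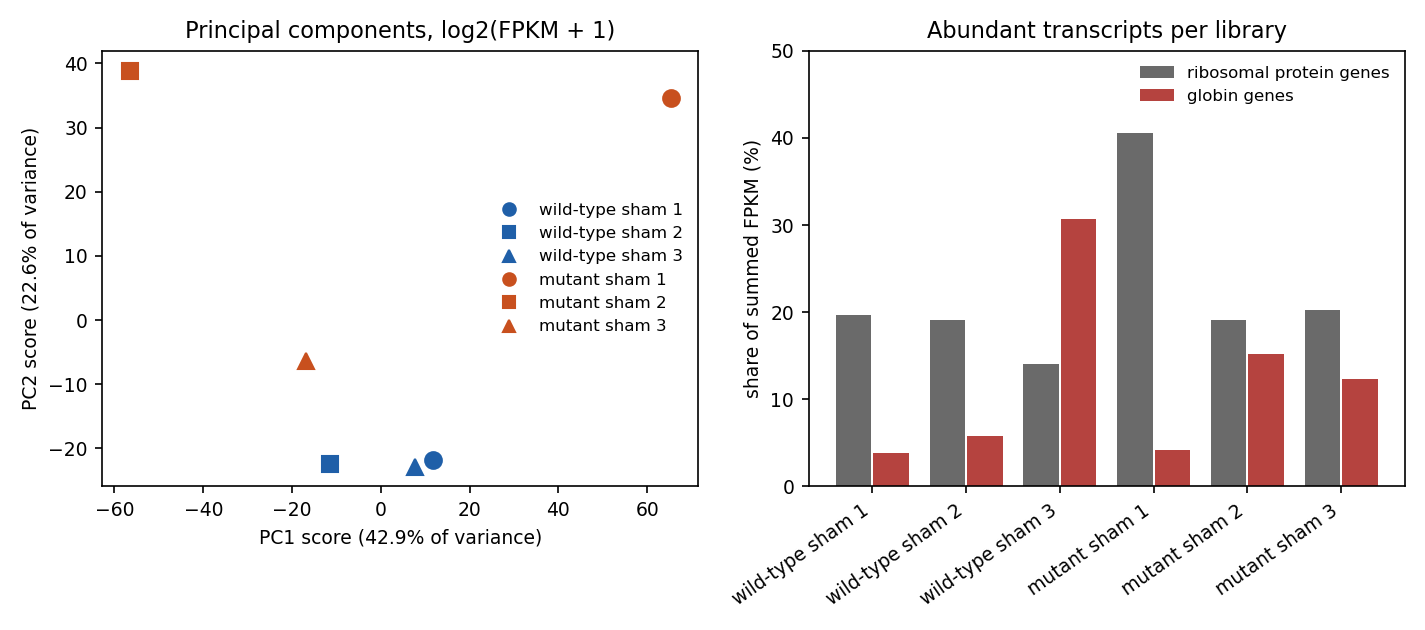
Left, scores of the 6 sham libraries on the first and second principal component of log2(FPKM + 1), each symbol 1 library. Right, share of summed FPKM (%) in ribosomal protein genes and in globin genes per library. Wild-type libraries lie together on the left plot, the mutant libraries are spread from -56.6 to 65.4 on the first component, and mutant sham 1 has the tallest ribosomal bar at 40.6%.

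Transcripts of yap1 (NCBI gene 561411) were at lower levels in the mutants. In wild-type sham 1, 2 and 3 the gene stood at 28.4, 28.4 and 18.8 FPKM, and in mutant sham 1, 2 and 3 at 10.1, 14.3 and 14.4 FPKM. The groups did not overlap, and no mutant library was near 0. The log2 difference, mutant minus wild type, was -0.90 ± 0.27 (SE). It did not pass limma's test over all genes (unadjusted p = 0.00991, Benjamini-Hochberg adjusted p = 0.986). An exact two-sided permutation test gave p = 0.1, the smallest p that 3 libraries against 3 allow. The value lay between -1.09 and -0.75 when any 1 library was left out.

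No such difference was seen in wwtr1 (NCBI gene 568008). It stood at 16, 15.5 and 11.3 FPKM in wild type and at 10.5, 15.8 and 13.6 FPKM in mutants. The groups overlapped, with a log2 difference of -0.10 ± 0.26 (SE) and a two-sided exact permutation p of 0.6. Without mutant sham 1 the sign turned, to 0.053.

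Across the 13612 genes tested (mean of 1 FPKM or more over the 6 libraries), limma called none at an adjusted p under 0.05, which is 0% of genes. The lowest adjusted p was 0.338, a value that slc16a1a had but did not hold alone. At an unadjusted p under 0.05, 352 genes were higher in mutants (2.59% of tested genes) and 216 lower (1.59%). Together they made up 4.17% of tested genes. If no gene differed, an average share of 0.05 would pass this threshold. After rescaling by medians of ratios the numbers were 351 higher and 441 lower, and after quantile normalization 382 and 535, so the balance of directions depends on the scaling. Genes whose mutant libraries all lay above all wild-type libraries numbered 962 (7.07%), and 444 (3.26%) lay below. Together these were 10.3% of tested genes. With 3 libraries against 3, no overlap in either direction has a probability of 0.1 for a gene that does not differ. With weights for library quality, which gave mutant sham 3 a weight of 3.35 and mutant sham 1 a weight of 0.225, limma called 5 genes. They were krt15, tgm8 and zgc:162608 higher and gpm6aa and zmp:0000001138 lower, by their sign in that fit. What follows is therefore a description of levels and of their spread. None of the genes in it passed the adjusted threshold in the fit of all 6 sham libraries with equal weights.

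The keratin genes krt15 and krt18b and the receptor genes npr3 and aplnra were among the 10 genes that stood highest in mutants relative to the spread, taken by lowest p among genes without overlap between the groups. They had unadjusted p-values from 0.000179 to 0.00221 and adjusted p-values from 0.488 to 0.986 (limma). In bulk RNA of whole hearts, a change in the number of cells of a type and a change in RNA per cell cannot be told apart.

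The gene with the lowest p among them was krt15 (NCBI gene 406844), a type I keratin of epithelial intermediate filaments. It stood at 275, 263 and 211 FPKM in wild-type sham 1, 2 and 3 and at 795, 697 and 777 FPKM in mutant sham 1, 2 and 3. Both groups were tight, and the lowest mutant library was far above the highest wild-type library. The means were 249.8 ± 33.8 and 756 ± 52.1 FPKM (SD), a log2 difference of 1.6 ± 0.24 (SE, adjusted p = 0.488 by limma). The other keratin, krt18b (NCBI gene 393540), is a type I keratin of simple epithelia. Its levels were 82.9, 93.4 and 64.8 FPKM in wild type and 180.1, 184 and 149 FPKM in mutants, with a log2 difference of 1.09 ± 0.25 (SE). Again no mutant library reached down to the wild-type range.

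The Notch-modifying glycosyltransferase gene mfng, Manic fringe, stood at 0.860, 2.73 and 4.99 FPKM in wild type and at 12.3, 27.5 and 16.5 FPKM in mutants, the widest separation of the 10 at a log2 difference of 2.44 ± 0.47 (SE). The gene bambia encodes a pseudoreceptor that dampens BMP and TGF-beta signals. Its levels were 6.47, 12.5 and 9.95 FPKM in wild type and 25.9, 32.4 and 25.1 FPKM in mutants (log2 difference 1.47 ± 0.28, SE). For both genes every mutant library was above every wild-type library by a wide margin. The natriuretic peptide clearance receptor gene npr3 stood at 1.83, 2.28 and 2.65 FPKM against 5.31, 6.85 and 6.78 FPKM, and the apelin receptor gene aplnra at 4.37, 5.40 and 5.03 FPKM against 11.7, 11.3 and 9.46 FPKM. Both receptors were even within their groups, with log2 differences of 1.17 ± 0.24 and 1.00 ± 0.22 (SE). The junctional adhesion molecule gene jam2b was at 1.1, 2.83 and 2.04 FPKM in wild type and at 7.60, 8.95 and 6.56 FPKM in mutants (log2 difference 1.58 ± 0.29, SE).

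The remaining 3 genes were anxa1a, mych and gadd45ab, the first 2 of them uneven among the mutants. Levels of anxa1a, a calcium-dependent phospholipid-binding annexin, were 149.6, 103 and 102 FPKM in wild type and 626, 335 and 267 FPKM in mutants (log2 difference 1.71 ± 0.36, SE). The Myc family transcription factor gene mych stood at 3.37, 5.08 and 3.47 FPKM against 28.6, 18.9 and 8.53 FPKM (1.85 ± 0.41). In both genes mutant sham 1 was highest and mutant sham 3 was nearest to wild type. The stress-response gene gadd45ab, a member of the growth arrest and DNA damage inducible family, was at 1.90, 3.67 and 0.800 FPKM against 9.46, 9.13 and 6.70 FPKM (1.69 ± 0.37).

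The 10 genes that stood lowest in mutants by the same rule had unadjusted p-values from 7.44e-05 to 0.00273 and adjusted p-values from 0.338 to 0.986 (limma). First among them was slc16a1a (NCBI gene 100534752), a monocarboxylate transporter gene of the family that carries lactate and pyruvate. It stood at 7.69, 19.9 and 6.34 FPKM in wild-type sham 1, 2 and 3 and at 0.110, 0.430 and 0.470 FPKM in mutant sham 1, 2 and 3. All mutant libraries were near 0 while wild-type sham 2 was well above the other 2 wild-type libraries. The log2 difference was -3.05 ± 0.41 (SE, adjusted p = 0.338 by limma), and on this scale the added 1 FPKM understates a difference from values so close to 0.

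The neuronal membrane glycoprotein gene gpm6aa was more even. It stood at 7.27, 9.87 and 9.84 FPKM in wild type and at 2.03, 2.68 and 2.00 FPKM in mutants (log2 difference -1.62 ± 0.24, SE). The deiodinase gene dio1, an enzyme that activates thyroid hormone, was at 19.6, 37.4 and 25.7 FPKM against 9.99, 10.3 and 9.44 FPKM (-1.34 ± 0.28). In dio1 the mutants hardly differed from each other, and the spread lay in wild type. The ligand gene fgf7, which encodes a fibroblast growth factor acting on epithelia, was at 7.65, 8.87 and 9.58 FPKM against 1.65, 3.51 and 4.12 FPKM (-1.29 ± 0.30), and mdfic2 at 8.56, 4.91 and 7.00 FPKM against 1.98, 1.48 and 0.945 FPKM (-1.66 ± 0.29).

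Muscle genes were also among the 10. The smoothelin gene smtnb, a cytoskeletal protein of smooth muscle, stood at 19.6, 19.9 and 15.5 FPKM in wild type and at 3.32, 2.47 and 9.36 FPKM in mutants (log2 difference -1.84 ± 0.41, SE). The gene asb2a.1, whose mammalian relative is a substrate receptor of a ubiquitin ligase in muscle, was at 26.1, 20.4 and 30.4 FPKM against 5.91, 4.95 and 12.7 FPKM (-1.67 ± 0.35). In both genes mutant sham 3 was the mutant library nearest to wild type. The Bcl-2 family gene bcl2l10, a regulator of apoptosis, was at 149.7, 161 and 118 FPKM against 43.9, 68.4 and 59.4 FPKM (-1.31 ± 0.26). The zinc finger gene znf326 and aste1 (NCBI gene 100006826) were low and uneven within wild type, with log2 differences of -2.47 ± 0.47 and -2.04 ± 0.37 (SE).

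**Figure D2:**
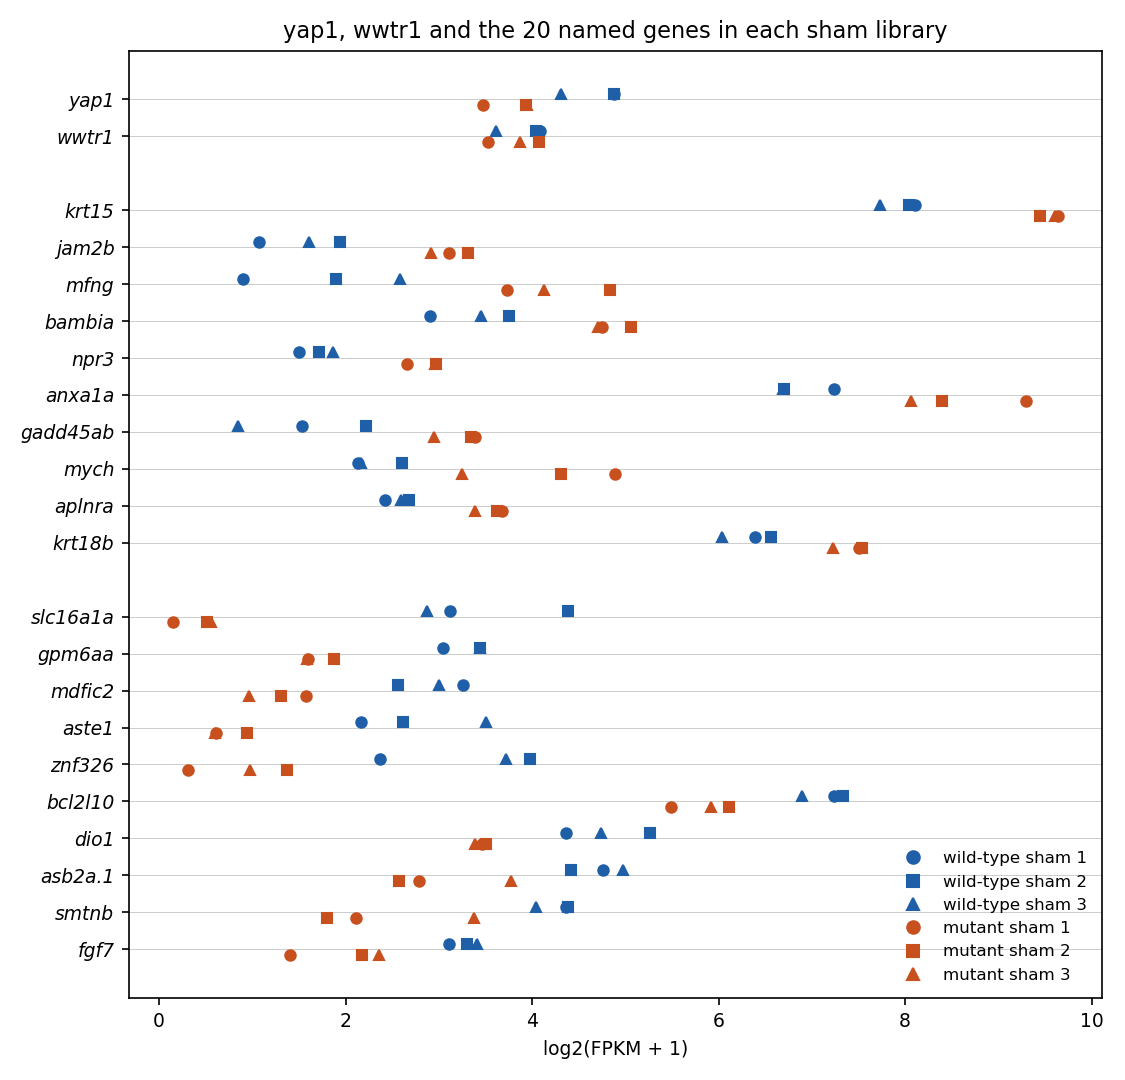
Levels of yap1, wwtr1 and the 10 genes taken in each direction, as log2(FPKM + 1) on the x axis, each symbol 1 sham library. Only for wwtr1 do mutant and wild-type symbols overlap, since the rule took 20 genes without overlap. The mutant symbols of slc16a1a, between 0.110 and 0.470 FPKM, lie next to 0.

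The 20 genes were followed into the 6 cryoinjured libraries, which the rule had not used. All 10 higher genes had a positive log2 difference there as well, as did 35% of all tested genes, and all 10 lower genes had a negative one, as did 65% of all tested genes. The cryoinjured libraries did not overlap for 3 of the 10 higher genes (krt15, jam2b and mfng), beside 3.12% of all tested genes in that direction. They did not overlap for 3 of the 10 lower genes (slc16a1a, asb2a.1 and smtnb), beside 12.7% of all tested genes. Levels of krt15 were 277, 413 and 472 FPKM in cryoinjured wild-type hearts and 889, 1000.4 and 735 FPKM in cryoinjured mutant hearts. For slc16a1a they were 3.29, 6.29 and 3.52 FPKM and 0, 0.150 and 2.31 FPKM. The other 14 genes overlapped after injury, among them anxa1a, which was at 181 FPKM in mutant cryoinjury 3, below all 3 cryoinjured wild-type libraries.

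Epicardial genes stood higher in the mutants as a list, most of all in mutant sham 2 and mutant sham 3. Of 21 tested genes of the list 19 were higher and 2 lower, with a median log2 difference of 0.89, against 58.5% higher and a median of 0.07 over all tested genes. None passed the adjusted threshold, 11 were higher at an unadjusted p under 0.05 (beside 2.59% of all tested genes) and 9 were higher without overlap between groups (beside 7.07%). The mean over the list of log2(FPKM + 1) relative to the wild-type sham mean was -0.08, 0.30 and -0.22 in wild-type sham 1, 2 and 3 and 0.10, 1.31 and 0.97 in mutant sham 1, 2 and 3. On this scale mutant sham 1 lay inside the wild-type range and the other 2 mutant libraries lay above it. The same mean over all tested genes was -0.01, 0.09 and -0.08 in wild-type sham 1, 2 and 3. It was -0.23, 0.34 and 0.09 in mutant sham 1, 2 and 3. These offsets were not taken off the list means, so a library's place beside wild type depends on them. The median log2 difference of the epicardial list was 1.18 without mutant sham 1 and 0.65 without wild-type sham 3, the extremes of leaving out any 1 library.

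Among the transcription factors that mark the epicardium, tcf21 stood at 23.0, 25.6 and 25.7 FPKM in wild type and at 49.9, 84.3 and 40.4 FPKM in mutants (log2 difference 1.13 ± 0.30, SE). Levels of tbx18 were 4.22, 8.81 and 4.19 FPKM against 8.54, 26.5 and 16.9 FPKM (1.38 ± 0.43). For tcf21 the groups were apart, whereas mutant sham 1 fell just below wild-type sham 2 in tbx18. The Wilms tumour genes wt1a and wt1b, both zinc finger factors of the epicardium, were at 1.05, 1.77 and 1.5 FPKM against 2.03, 6.38 and 7.18 FPKM and at 4.47, 3.66 and 4.70 FPKM against 4.89, 17.6 and 11.1 FPKM. Their log2 differences were 1.23 ± 0.40 and 1.06 ± 0.41 (SE), and in both mutant sham 1 was barely above wild type. The retinoic acid synthesis gene aldh1a2 overlapped between groups, at 38.1, 88.0 and 39.9 FPKM against 48.7, 84.8 and 132 FPKM (0.67 ± 0.45).

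Of the 5 keratin genes of the list, krt18b, krt94 and krt8 did not overlap between the groups, and krt18 and krt4 did (log2 differences of 0.89 ± 0.37 and 0.91 ± 0.43, SE). The keratin gene krt94 stood at 808, 513 and 449 FPKM in wild type and at 2849.8, 1414 and 1345 FPKM in mutants (log2 difference 1.62 ± 0.39, SE), and krt8, a type II keratin of simple epithelia, at 618, 745 and 497 FPKM against 1110.2, 1441 and 1335 FPKM (1.07 ± 0.28). In krt94, as in anxa1a, mutant sham 1 was the highest library, whereas in krt8, wt1a and wt1b it was the lowest mutant. Reads of near-identical keratin genes may have been divided between copies in ways not given in the sources used here. Of 9 tested genes of the skin and gill list 7 were higher in mutants (beside 58.5% of all tested genes) and 2 lower, with a median log2 difference of 0.46. At an unadjusted p under 0.05, 2 were higher and 1 lower (beside 2.59% and 1.59% of all tested genes). Among them krt93 was at 17.5, 14.9 and 11.2 FPKM against 79.3, 31.7 and 31.8 FPKM, and krt91 at 75.5, 74.9 and 28.8 FPKM against 609.9, 129 and 103 FPKM. The basal skin keratin gene krt5 stood between 0.610 and 4.53 FPKM, with overlap and a log2 difference of 0.46 ± 0.48 (SE), and the basal factor gene tp63 was at 1.6 to 3.83 FPKM in mutants against 4.13 to 5.34 FPKM in wild type. The part of skin or gill RNA in the keratin levels was not tested.

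The level of the atrial myosin gene also varied between libraries. This gene, myh6, singled out after its values were seen, was at 5.09, 14.7 and 165 FPKM in wild type and at 73.2, 184 and 221 FPKM in mutants. Mutant sham 2 and mutant sham 3 were the highest libraries both in myh6 and in the epicardial mean (1.31 and 0.97). Wild-type sham 3, whose myh6 was within the mutant range, had the lowest epicardial mean of the 6 libraries (-0.22). The part of atrial tissue in the epicardial result was not tested.

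**Figure D3:**
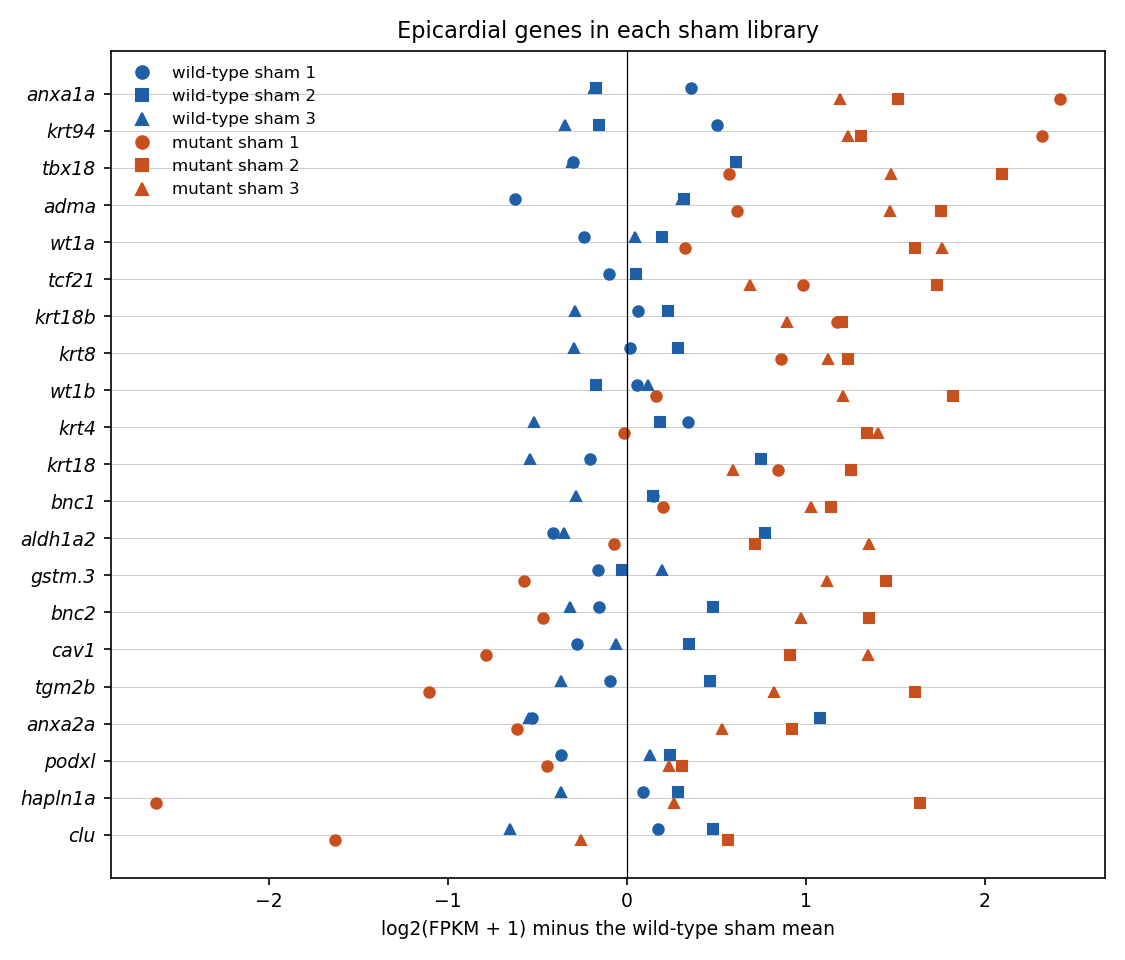
The 21 tested epicardial genes in each sham library, as log2(FPKM + 1) minus the gene's wild-type sham mean on the x axis, each symbol 1 library. Mutant sham 2 and mutant sham 3 lie right of the wild-type symbols for most genes, while mutant sham 1 (filled orange circles) is far right for anxa1a and krt94 and left of 0 for most of the lower rows.

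Most genes of the contractile apparatus were lower in mutants, by the list mean mainly in mutant sham 1 and by summed FPKM in mutant sham 1 and 2. Of 32 tested genes of sarcomere and calcium handling 5 were higher and 27 lower (beside 41.5% of all tested genes), with a median log2 difference of -0.54. In each direction 1 had an unadjusted p under 0.05 (beside 2.59% of all tested genes higher and 1.59% lower). The genes without overlap between groups were 5, all lower (beside 3.26% of all tested genes). The mean of the list, which includes myh6 and tnnc1b at log2 differences of 2.53 and 2.21, was -0.86, -0.16 and 0.03 in mutant sham 1, 2 and 3 and 0.00, -0.03 and 0.03 in wild-type sham 1, 2 and 3. The summed FPKM of the list, to which abundant genes contribute most, was 64034, 58578 and 87418 in mutant sham 1, 2 and 3. In wild-type sham 1, 2 and 3 it was 110424, 102531 and 95819. Without mutant sham 1 the median log2 difference was -0.27, and without both mutant sham 1 and 2 it was -0.19.

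The cardiac myosin-binding protein gene mybpc3 stood at 1575, 1553 and 1251 FPKM in wild type and at 630.0, 778 and 1043 FPKM in mutants (log2 difference -0.86 ± 0.29, SE). The atrial and ventricular light chain gene myl7 was at 34202, 29128 and 22630.1 FPKM against 16122, 14277 and 18218 FPKM (-0.81 ± 0.36), and the cardiac actin gene actc1a at 15171, 15318 and 14280.4 FPKM against 5789, 7670.0 and 12946 FPKM (-0.84 ± 0.39). In mybpc3 and actc1a mutant sham 3 came closest to wild type. Not all sarcomere genes did this: tnnt2a was at 9279, 8719.8 and 9411 FPKM against 11043, 8461 and 8716 FPKM, a log2 difference of 0.03 ± 0.31 (SE) that turned to -0.089 without mutant sham 1. The transcription factor gene mef2ca, a regulator of muscle genes, was at 18.3, 22.3 and 12.6 FPKM against 4.50, 5.88 and 13 FPKM (-1.18 ± 0.39), with mutant sham 3 inside the wild-type range. The peptide hormone genes nppa and nppb, often read as markers of strain on heart muscle, overlapped between groups. They had log2 differences of 0.07 ± 0.34 and 0.63 ± 0.61 (SE), and that of nppa turned to -0.36 with quantile normalization.

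Among smooth muscle and bulbus arteriosus genes a few contractile genes stood apart while the list as a whole did not. Of 17 tested genes 6 were higher and 11 lower (beside 41.5% of all tested genes lower), with 4 lower at an unadjusted p under 0.05 (beside 1.59%), and the median of -0.15 turned to 0.14 without mutant sham 1 and to 0.06 without wild-type sham 1. The 4 genes were smtnb, myl9a, myl9b and acta2. The regulatory myosin light chain gene myl9a stood at 1079, 1135 and 860.0 FPKM in wild type and at 338, 632 and 362 FPKM in mutants (log2 difference -1.25 ± 0.32, SE). Its paralogue myl9b was at 357, 437 and 372 FPKM against 189, 196 and 254 FPKM (-0.87 ± 0.25), and the smooth muscle actin gene acta2 at 374, 346 and 274 FPKM against 146, 190.3 and 214 FPKM (-0.86 ± 0.26). None of the 3 overlapped between groups, and mutant sham 1 was lowest in each. The smooth muscle myosin gene myh11a and the smooth muscle marker tagln overlapped, with log2 differences of 0.18 ± 0.47 and -0.15 ± 0.33 (SE).

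Most genes of energy metabolism had negative and mostly small differences. By list mean mutant sham 1 was lowest, while by summed FPKM oxidative phosphorylation genes were about equally low in mutant sham 1 and 2. Of 77 tested nuclear genes of oxidative phosphorylation 72 were lower (beside 41.5% of all tested genes), with a median log2 difference of -0.35. None was higher and 1 was lower at an unadjusted p under 0.05, which is no more than the 1.59% of all tested genes, and 18 were lower without overlap (beside 3.26%). The gene with that p, ndufa4, a subunit of the respiratory chain, stood at 1021, 735 and 653 FPKM in wild type and at 132, 402 and 619 FPKM in mutants (-1.30 ± 0.54, SE). Its mutant values ran from far below wild type to just below it. The list means were -0.58, -0.42 and -0.06 in mutant sham 1, 2 and 3 and 0.18, -0.07 and -0.11 in wild type. The summed FPKM of the list was 30630, 30753 and 40450 in mutant sham 1, 2 and 3. In wild-type sham 1, 2 and 3 it was 48164, 40446 and 38646. The median lay between -0.53 and -0.26 when any 1 library was left out. Without both mutant sham 1 and 2 the median was -0.062.

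Fatty acid oxidation genes showed a like picture, with 34 of 38 lower (beside 41.5% of all tested genes) and a median log2 difference of -0.42. Of these, 5 were lower at an unadjusted p under 0.05 (beside 1.59%). The thiolase gene acaa2, whose enzyme carries out the last step of the mitochondrial cycle, was at 71.8, 41.9 and 67.3 FPKM in wild type and at 15.3, 28.4 and 34.4 FPKM in mutants (-1.22 ± 0.36, SE). The fatty acid activating enzyme gene acsl1b was at 49.0, 35.5 and 36.4 FPKM against 10.2, 25.8 and 26.3 FPKM (-1.02 ± 0.38). Both were without overlap, and mutant sham 1 was lowest. The list means were -1.05, -0.16 and 0.04 in mutant sham 1, 2 and 3. The medians were -0.16 without mutant sham 1 and -0.031 without mutant sham 1 and 2. Of 34 glycolysis genes 25 were lower (beside 41.5% of all tested genes), with a median of -0.30 that was -0.14 without mutant sham 1 and turned to 0.089 without mutant sham 1 and 2. Among them was aldolase aldoab at 1241, 1239 and 1224 FPKM against 674, 869.9 and 1090.5 FPKM (-0.52 ± 0.28).

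**Figure D4:**
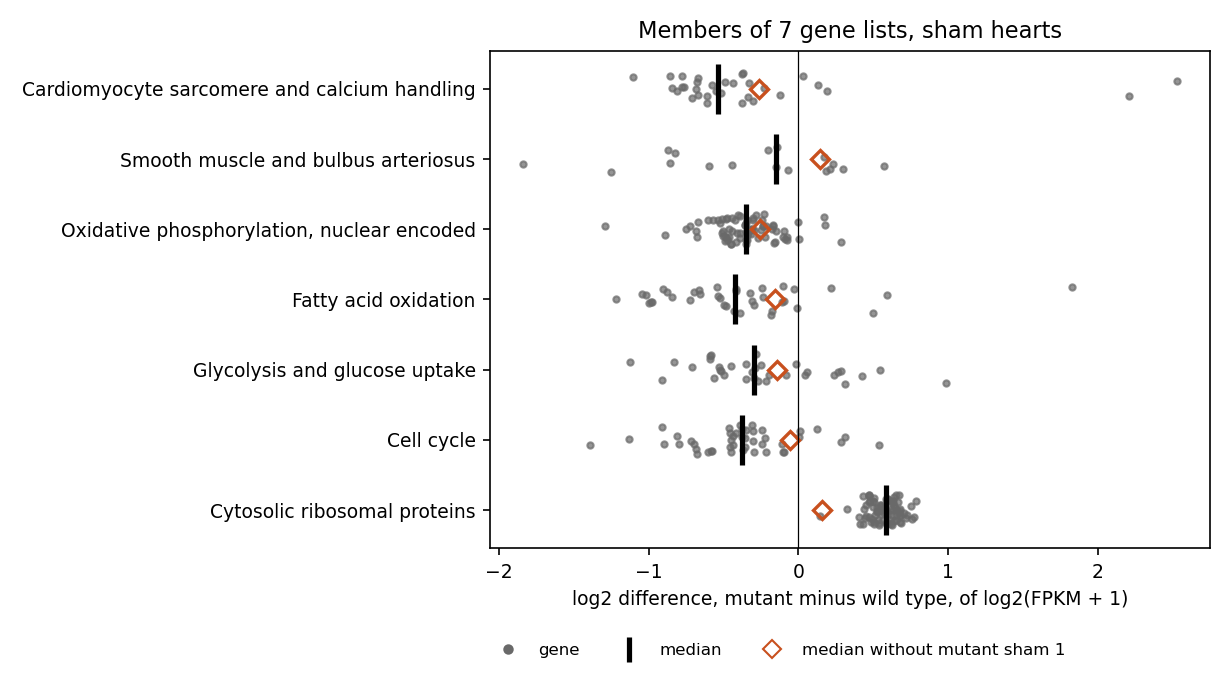
Log2 difference, mutant minus wild type, of log2(FPKM + 1) in sham hearts for each tested gene of 7 lists (grey points), with the list median (black bar) and the median without mutant sham 1 (open diamond). Diamonds lie nearer to 0 than bars in all 7 lists, by a hair in smooth muscle, where the median passes from -0.15 to 0.14.

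Ribosomal protein genes set mutant sham 1 apart. All 80 had a positive log2 difference (beside 58.5% of all tested genes), with a median of 0.58. Of them 30 did not overlap between groups (beside 7.07%), but only 1 had an unadjusted p under 0.05 (beside 2.59%). The list means were 1.41, 0.09 and 0.22 in mutant sham 1, 2 and 3 and 0.08, 0.03 and -0.12 in wild type. Levels of rpl28, a protein of the large subunit, were 1223, 1267 and 1324 FPKM in wild type and 3432, 1668 and 1598 FPKM in mutants (0.72 ± 0.36, SE). All mutants were higher, and the size of the difference came from mutant sham 1. Without that library the median was 0.16. FPKM are relative to the fragments mapped in a library, and their sum is not fixed. It was 820875 in mutant sham 1 and 674477, 668670 and 823107 in wild-type sham 1, 2 and 3. Because FPKM are divided by transcript length, the 40.6% of the sum is not a share of fragments. Globin genes held 4.13% in mutant sham 1. In wild-type sham 3 globin genes held 30.7% and ribosomal protein genes 14.0%. Its list means were 0.03 for sarcomere, -0.33 for smooth muscle, -0.11 for oxidative phosphorylation, -0.02 for fatty acid oxidation and -0.26 for glycolysis genes. The part of abundant transcripts in the lower muscle and metabolism genes was not tested.

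Cell cycle genes were mostly lower in mutants, but the libraries of the groups overlapped. Of 45 tested genes 39 were lower in mutants (beside 41.5% of all tested genes) and 6 higher, with none at an unadjusted p under 0.05 in either direction and none without overlap. The median log2 difference was -0.38, and it was -0.056 without mutant sham 1 and -0.98 without mutant sham 2. Their list means were 0.39, 0.11 and -0.50 in wild-type sham 1, 2 and 3 and -1.09, 0.64 and -0.73 in mutant sham 1, 2 and 3. The thymidylate synthase gene tyms was at 12.6, 10.7 and 3.94 FPKM against 0.270, 10.8 and 1.92 FPKM, so that mutant sham 2 stood with wild type.

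Most matrix and leukocyte genes had positive differences, which came from mutant sham 2 and, less so, mutant sham 3. Of 32 genes of fibroblasts and fibrillar matrix 31 were higher (beside 58.5% of all tested genes; median log2 difference 0.50), and 2 were so at an unadjusted p under 0.05 (beside 2.59%). The list means were 0.00, 0.55 and -0.54 in wild type and -1, 1.89 and 0.69 in mutants, so the mutant libraries bracketed the wild-type libraries. Without mutant sham 2 the median was -0.27. The collagen gene col1a2 stood at 56.3, 53.3 and 19.9 FPKM against 7.17, 232 and 78.9 FPKM (0.41 ± 1.08, SE). The receptor gene pdgfra, which marks fibroblasts and their progenitors, was an exception at 3.28, 3.66 and 2.70 FPKM against 11.7, 5.47 and 7.51 FPKM (1.08 ± 0.30), without overlap and highest in mutant sham 1.

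Of 29 macrophage genes 27 were higher (median 0.75) and of 23 genes shared by all leukocytes 23 were higher (median 0.62), beside 58.5% of all tested genes. At an unadjusted p under 0.05 there were 1 and 0 of them, near or below the 2.59% of all tested genes. The macrophage means were -0.37, 0.28 and 0.09 in wild type and -0.29, 1.87 and 0.70 in mutants. The scavenger receptor gene marco stood at 10.7, 24.2 and 9.95 FPKM against 20.8, 186 and 24.9 FPKM (1.68 ± 0.78), and the defining macrophage gene mpeg1.1 at 1.91, 4.97 and 4.68 FPKM against 1.57, 21.0 and 6.69 FPKM (0.71 ± 0.71). In mpeg1.1 mutant sham 1 was below every wild-type library, and mutant sham 2 was far above all others in both genes. Without mutant sham 2 the medians were 0.11 for macrophage genes and -0.04 for genes shared by all leukocytes.

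Most inflammatory mediators were also higher, 21 of 25 tested (beside 58.5% of all tested genes; median log2 difference 0.57), 4 of them at an unadjusted p under 0.05 (beside 2.59%). Their list means were 0.13, 1.35 and 0.63 in mutants and -0.31, 0.40 and -0.09 in wild type. On this scale mutant sham 1 lay inside the wild-type range. Over all tested genes the same mean was -0.23 in mutant sham 1 and 0.09 in wild-type sham 2. The NF-kappaB inhibitor gene nfkbiaa, itself induced by NF-kappaB, was at 11.5, 10.1 and 15.2 FPKM in wild type and at 27.9, 40.9 and 22.2 FPKM in mutants (1.22 ± 0.29, SE). The cytokine feedback inhibitor gene socs3a was at 3.92, 86.5 and 28.6 FPKM against 138, 129 and 122 FPKM (2.48 ± 0.88). In socs3a the mutants were nearly equal, and the wild-type libraries were far apart. The CCAAT/enhancer-binding protein genes, listed with neutrophils and also active in liver, fat and inflamed tissue, were without overlap: cebpa was at 3.45, 6.67 and 4.28 FPKM against 9.46, 22.6 and 13.9 FPKM (1.45 ± 0.36), cebpb at 4.2, 11.9 and 8.69 FPKM against 12.2, 35.1 and 23.4 FPKM (1.39 ± 0.46), and cebpd at 14.6, 118 and 64.8 FPKM against 327, 167 and 259.9 FPKM (2.29 ± 0.68). The defining neutrophil gene mpx was low in all libraries, between 0.05 and 1.76 FPKM, and highest in mutant sham 2.

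**Figure D5:**
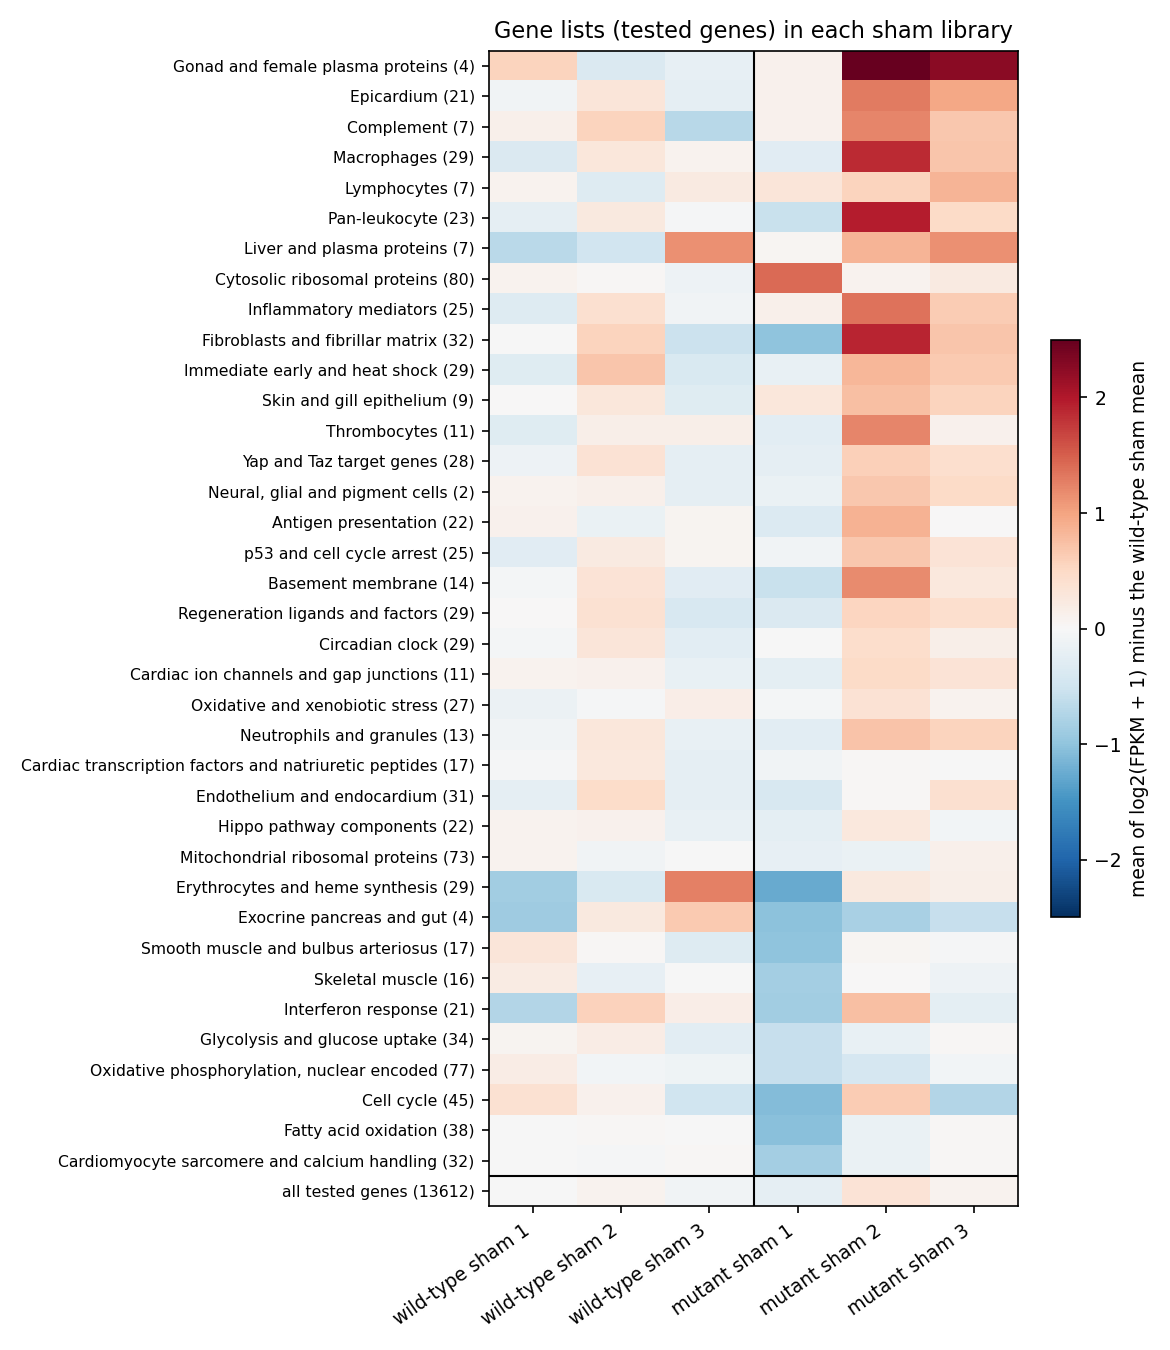
Mean over each list's tested genes (number in brackets) of log2(FPKM + 1) minus the wild-type sham mean, for the 6 sham libraries; red is above and blue below wild type. Mutant sham 1 is blue for most lists and red for ribosomal proteins (1.41), and mutant sham 2 is red for macrophages (1.87), fibrillar matrix (1.89) and epicardium (1.31). Over all tested genes (bottom row) mutant sham 1 is at -0.23 and mutant sham 2 at 0.34.

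In the cryoinjured libraries, where 35% of all tested genes were higher in mutants with a median log2 difference of -0.11, the lists were as follows. Of the 21 epicardial genes 14 were higher (median 0.19). Of 32 genes of fibroblasts and fibrillar matrix 10 were higher (median -0.13), and for this list the share and the median were near those of all tested genes. In sham hearts the median of these matrix genes was 0.50, and -0.27 without mutant sham 2. Macrophage genes were higher in 23 of 29 (median 0.29) and inflammatory mediators in 13 of 25 (median 0.02). All 80 ribosomal protein genes were again higher (median 0.52), with 1 mutant library again apart. These genes held 21.4%, 33.5% and 19.3% of summed FPKM in mutant cryoinjury 1, 2 and 3. In wild-type cryoinjury 1, 2 and 3 they held 20.2%, 15.6% and 17.3%. Lower were 24 of 32 sarcomere genes (median -0.22), 53 of 77 genes of oxidative phosphorylation (median -0.11), 35 of 38 fatty acid oxidation genes (median -0.47) and 43 of 45 cell cycle genes (median -0.67), beside 65% of all tested genes.

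Genes known as targets of Yap and Taz did not share a direction. Of 28 tested, 18 were higher and 10 lower in mutants (beside 58.5% of all tested genes higher), and the median log2 difference was 0.36 (0.025 without mutant sham 2). At an unadjusted p under 0.05, 3 were higher and 2 lower (beside 2.59% and 1.59% of all tested genes). Both lower genes were the light chain genes myl9a and myl9b given with smooth muscle. Among the higher ones were nuak2 and f3b. The coagulation factor gene f3b stood at 32.4, 37.1 and 22.9 FPKM in wild type and at 49.0, 68.3 and 39.5 FPKM in mutants (0.74 ± 0.29, SE), without overlap. The CCN family genes overlapped between groups: ctgfa was at 26.8, 45.5 and 18.6 FPKM against 15.1, 65.6 and 42.0 FPKM (0.29 ± 0.54), and ccn1 at 15.1, 45.4 and 14.0 FPKM against 16.3, 71.0 and 80.2 FPKM (1.06 ± 0.66).

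Components of the Hippo pathway other than yap1 had mostly small differences in both directions. Of 22 tested genes of the list, yap1 included, 9 were higher and 13 lower (beside 41.5% of all tested genes lower), with a median log2 difference of -0.07. The 1 gene with an unadjusted p under 0.05 was yap1, which was lower (beside 1.59% of all tested genes). The kinase gene taok3a, which acts upstream of the Hippo kinases, stood at 3.16, 5.72 and 4.35 FPKM in wild type and 5.69, 10.3 and 5.71 FPKM in mutants (0.59 ± 0.31, SE). The Yap partner gene tead3b was at 3.04, 2.51 and 2.45 FPKM against 1.79, 2.29 and 1.99 FPKM (-0.28 ± 0.24), a small difference without overlap.

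Genes close to a mutated gene on its chromosome tend to be inherited with it, and those around yap1 were therefore described apart. Of the 50 protein-coding genes on each side of it in the RefSeq gene table of the assembly GRCz12tu, 49 were tested and none was called by limma. At an unadjusted p under 0.05 there were 3 (6.12%, beside 4.17% of all genes in either direction), and 8 did not overlap between groups (16.3%, beside 10.3%). The gene bcl2l10, one of the 10 lower genes, is the 16th gene from yap1 in that table. On the same chromosome lie fgf7 and the endothelial list gene vwf.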

How the data were processed

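The authors deposited FPKM values, 1 per gene and library, for 24782 genes with NCBI gene identifiers and symbols. Trizol-extracted RNA went into poly-A libraries for the BGISEQ-500 platform, per the labels' protocols. HISAT and Bowtie2 with the build GRCz11 stand in the submitters' processing notes, with no versions given. FPKM are relative to the fragments mapped in each library, so a few abundant transcripts can lower all others. Total reads were not used here.

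Columns were matched to samples by name, 13 were used and 1 matched no sample and was not used. The test was run on log2(FPKM + 1), a scale that understates differences at low levels, with limma 3.58.1 in R 4.3.3 (intensity trend, a mean per group, the 6 sham libraries only). Genes with a mean of 1 FPKM or more were tested, with Benjamini-Hochberg adjustment and a threshold of 0.05. Scripts were tested on simulated data. An exact two-sided permutation test was added for yap1 and wwtr1. Names missing from the file were taken by gene ID from the RefSeq table of GRCz12tu, and slc16a1a, krt18b, smtnb and asb2a.1 are among those so named or given under another name in the file; its gene order gave the neighbours of yap1, and none of its coordinates are printed.

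Named were yap1 and wwtr1, then, in each direction, 10 genes with a proper symbol, a group mean of at least 5 FPKM and no overlap (called genes first, then lowest p), genes at least 5 times apart between groups, up to 3 members of each list by lowest p, and defining markers. Other list members given with values were chosen after their values were seen. The values of 1 list member are not reported here. The members and the 37 gene lists were chosen with earlier results of these data known, so lists have counts and medians and no test. Some genes stand in more than 1 list. Same-numbered libraries of the 2 groups are not paired by the labels. Alternatives were another pseudocount, filter and scaling, library weights, all 12 libraries in 1 fit, a replicate block, and leaving libraries out.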

Additional observations from a re-analysis of the deposited data

How the results depend on the processing

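limma called 0 genes at an adjusted p under 0.05 with equal weights, and 5 genes with library weights (3 higher and 2 lower in mutants). Leaving out 1 library gave 0 to 2 called genes (0 to 1 higher, 0 to 1 lower). They were rcvrnb without wild-type sham 1, si:dkey-23c22.6 and vtg1 without mutant sham 1, and catip without mutant sham 2, each chosen by that call. At an unadjusted p under 0.05, 352 genes were higher and 216 lower. A filter at 5 FPKM gave 221 and 130, all 12 libraries in 1 fit 558 and 277, library weights 1266 and 558, and TPM rescaling 198 and 174. No filter gave 526 and 399, median-of-ratios rescaling 351 and 441, and quantile normalization 382 and 535. Without 1 library the higher genes numbered 180 to 1228, the latter without mutant sham 1, and the lower genes 121 to 351.

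Same-numbered libraries had correlations of 0.21, 0.08 and 0.01 between their deviations from the group means, so the numbers were not read as pairs. With the replicate block 0 genes were called, and 438 were higher and 245 lower at an unadjusted p under 0.05.

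Signs turned, with the cause not tested, for named genes whose groups overlapped. Without 1 library the log2 difference ran from -0.24 to 0.053 for wwtr1, -0.65 to 1.76 for col1a2, -0.16 to 0.87 for ctgfa, -0.056 to 1.49 for mpeg1.1, -0.24 to 0.66 for myh11a, -0.45 to 0.14 for tagln, -0.16 to 0.30 for nppa and -0.089 to 0.10 for tnnt2a. With library weights it was -0.33 for nppa, -0.51 for nppb, -0.050 for tnnt2a and 0.010 for kdrl. Without both mutant sham 1 and 2 it was -0.40 for nppa, -0.74 for nppb, -0.067 for tnnt2a and 0.16 for kdrl. Rescaling gave -0.00086 (median-of-ratios) and -0.36 (quantile) for nppa, and -0.035 (median-of-ratios) and -0.015 (TPM) for tnnt2a.

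Without both mutant sham 1 and 2 the list medians were -0.19 for sarcomere genes, -0.062 for oxidative phosphorylation, -0.031 for fatty acid oxidation and 1.12 for epicardial genes. Leaving out 1 library moved the epicardial median between 0.65 and 1.18, sarcomere genes between -0.68 and -0.27 and ribosomal protein genes between 0.16 and 0.84. The planned search for a TEAD motif in promoters was not run.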

Other observations

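Endothelial and endocardial genes were divided in direction, with 13 of 31 higher and 18 lower in mutants (beside 58.5% of all tested genes higher). Their median log2 difference was -0.01, and 0.43 without mutant sham 1 and 2. The haemostatic glycoprotein gene vwf stood at 16.8, 13.5 and 13 FPKM in wild-type sham 1, 2 and 3 and at 37.3, 22.1 and 27.5 FPKM in mutant sham 1, 2 and 3 (0.93 ± 0.26, SE). The endocardial transcription factor gene nfatc1 was at 9.84, 13.2 and 10.8 FPKM against 17.3, 14.4 and 18.9 FPKM (0.55 ± 0.23). In both genes the groups were apart, and neither passed the adjusted threshold of limma. The receptor gene kdrl, a general endothelial marker, overlapped, at 30.3, 41.6 and 29.9 FPKM against 20.6, 18.9 and 37.7 FPKM (-0.44 ± 0.31). Among genes of growth control, the growth factor gene igf2b was at 9.66, 10.7 and 6.19 FPKM against 31.3, 27.6 and 14.2 FPKM (1.32 ± 0.35), and the stress gene sesn1, a sestrin, at 72.1, 75.0 and 50.8 FPKM against 139, 103 and 129 FPKM (0.90 ± 0.26), both without overlap.

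Genes known from other tissues differed between libraries. The yolk protein gene vtg1, made in the liver of females, was at 1.12, 0.05 and 0 FPKM in wild type and at 0, 34.4 and 34.6 FPKM in mutants. It was near 0 in mutant sham 1 and clearly present in the other 2 mutant libraries. The pancreatic protease gene ctrb.2 was at 0.230, 7.62 and 36.8 FPKM in wild type and listed at 0 in all 3 mutant libraries. The elastase gene ela2, another pancreatic protease, had the other sign, at 1.6, 3.45 and 1.44 FPKM against 3.34, 6.73 and 4.54 FPKM. Of 4 tested genes of exocrine pancreas and gut, 2 were higher and 2 lower (beside 58.5% of all tested genes higher). Of 16 tested genes of skeletal muscle 5 were higher and 11 lower (beside 41.5% of all tested genes lower). Their median log2 difference of -0.21 ran from -0.36 to 0.05 when any 1 library was left out. At an unadjusted p under 0.05 (limma), 3 were lower (beside 1.59%), namely ckma and the actin genes acta1b and acta1a. The muscle creatine kinase gene ckma stood at 1912, 1061 and 1124 FPKM against 149, 634 and 444 FPKM (-1.92 ± 0.54, SE). These levels of ckma were no trace, while the skeletal myosin gene myhz2 was at or near 0 in every sham library. The source of the ckma RNA was not tested.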
